A study of Mus musculus with 8 samples.

Results

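Respiratory complex I, the NADH dehydrogenase of the inner mitochondrial membrane, was followed through the messenger RNAs of its subunits in mouse mammary basal cells sorted as G0 or G1. The members were the protein-coding genes whose GENCODE M21 symbol is Nduf followed by a, b, c, s or v and a number, together with Ndufab1 and the mitochondrial genes mt-Nd1 to mt-Nd6 with mt-Nd4l. The rule took 44 of the 54837 genes in the table, 37 of them in the nuclear genome and 7 in the mitochondrial genome. It used no measured value itself, but the members were chosen with earlier results of these data known. The assembly factors named Ndufaf, which help to build the complex but do not stay in it, were kept apart.

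Basal cells form the outer, contractile layer of the mammary epithelium. The mice were of the strain labelled C57BL/B6 and received no treatment, and the cells were sorted by phase into lysis buffer. There were 8 libraries, 1 G0 and 1 G1 library in each of 4 runs, so the groups held 4 libraries each. How many animals a run held, their age and the sorting markers are not given in the labels. A p-value here therefore reflects how far these libraries differ, and some of that may be technical.

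Complex I takes electrons from NADH, passes them along a chain of iron-sulfur clusters to ubiquinone and pumps protons out of the mitochondrial matrix. The catalytic core is built from nuclear-encoded subunits in the arm that reaches into the matrix and from the mitochondrially encoded ND subunits in the membrane arm. Around this core lie the accessory subunits, all nuclear-encoded, which stabilise the complex, so its assembly needs transcripts from both genomes.

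The libraries held 5868728 to 15014104 counts, and every tested nuclear member had at least 102 counts in each library. The G0 library of run 4 had 39094 genes detected against 20836 to 26614 in the other 7, and Gm10800 took 8.13% of its counts, against 1.71% in the G1 library of that run and at most 1.19% elsewhere. Krt5 and Krt14, keratins of basal cells, stood at 1415 to 2239 and 6650.5 to 9802 CPM, and Trp63, their transcription factor, at 87.6 to 136 CPM, so defining markers of the labelled cell type were present.

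Every one of the 43 subunits that passed the low-count filter had a fitted log2 fold change above 0, from 0.03 for mt-Nd3 to 0.56 for Ndufb4, with G1 the higher phase. Over all 15192 tested genes the share above 0 was 49.9%. The median was 0.35 for the 37 nuclear subunits and 0.23 for the 6 tested mitochondrial subunits, against -0.0007 for all genes. No subunit passed edgeR's quasi-likelihood test at an adjusted p of 0.05, where the background was also 0% of genes higher in G1, and every member's adjusted p was 0.9999. DESeq2 and limma-voom without a run term called none of the 43 either. At an unadjusted p under 0.05 the same edgeR fit took 2 members, Ndufs3 and Ndufa8, both higher in G1, against a background of 1.03%. In these bulk libraries, fewer cells of a type and less RNA per cell cannot be told apart.

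The G0 and G1 libraries of one run resembled each other, and a second edgeR fit therefore compared phases with the run as a block. It called 189 genes, 0.481% of those tested as higher in G1 and 0.764% as lower, and again no complex I subunit. The smallest adjusted p of a member was 0.0511, for Ndufb6, with a log2 fold change of 0.48 ± 0.12 (SE). At an unadjusted p under 0.05 the blocked fit took 36 of the 43 members, all higher in G1, against 6.58% of all genes. All 43 had a fitted log2 fold change above 0, against 51.1% of all genes. The medians in this fit were 0.36 for nuclear and 0.32 for mitochondrial subunits, against 0.01 for all genes. With DESeq2 and the run as a block, 4 members passed: Ndufb6, Ndufa5, Ndufa11 and mt-Nd2 (background 0.638%). The calls thus depended on the tool, while all 43 members had the same direction in these fits except mt-Nd3, at -0.041 with limma-voom without a run term. With a single library or run left out, 36 or 37 of the 37 nuclear subunits stayed above 0, whereas of the 6 mitochondrial subunits only 1 did without the G1 library of run 3 and 3 did without the G0 library of run 2. With a whole run left out of the blocked fit, 5 or 6 of the 6 mitochondrial subunits stayed above 0. The blocked edgeR fit also called 5 members without run 1 (Ndufb3, Ndufb4, Ndufb6, Ndufs4 and Ndufa11, background 0.638%) and 4 without run 3 (Ndufc1, Ndufb6, Ndufs4 and mt-Nd1, background 0.477%).

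Within single runs, 34 of the 43 members were higher in G1 in all 4 runs, 31 nuclear and 3 mitochondrial, against 11.3% of all tested genes. By run, 40, 40, 38 and 43 of 43 were higher in G1 in runs 1 to 4, where the shares of all genes were 50.9%, 52.3%, 52.1% and 49.4%. Among the others, each with at least 1 run in which G1 was not the higher phase, were Ndufs1, Ndufs5, Ndufv3, Ndufb4, Ndufb5, mt-Nd3, mt-Nd5 and mt-Nd6. None was lower in G1 in all 4 runs. Run 4, which holds the G0 library that stands apart, also had the largest nuclear median of the per-run log2 ratios, 0.62; without it, the blocked fit gave medians of 0.26 for nuclear and 0.29 for mitochondrial subunits, with no member called and a smallest adjusted p of 0.172.

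**Figure D1:**
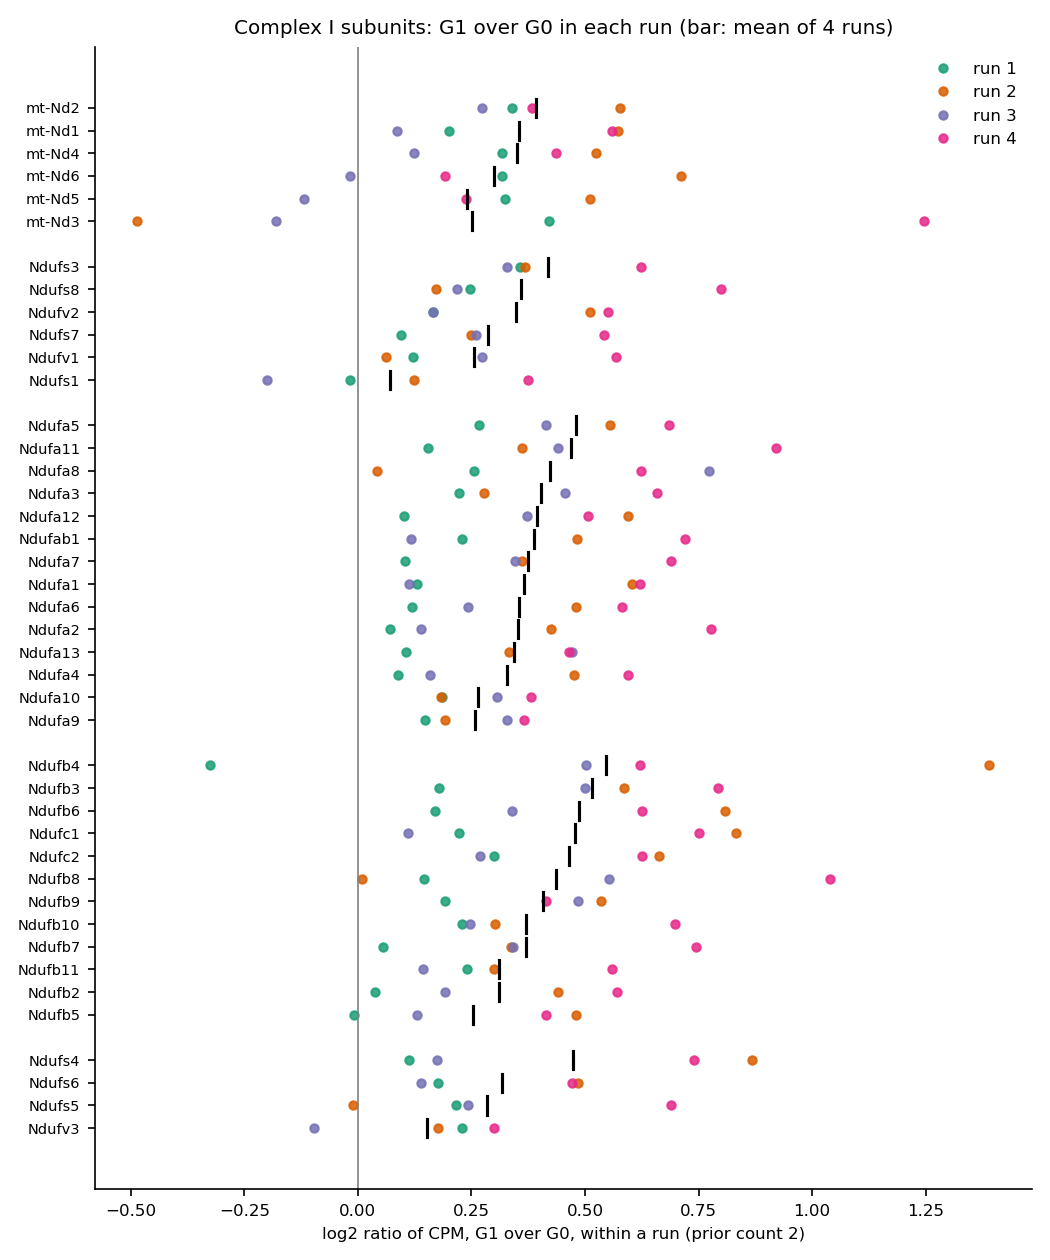
Log2 ratio of CPM (counts scaled to library size), G1 over G0 within a run (horizontal axis), for 42 of the 43 tested complex I subunits (vertical axis), in blocks from top to bottom of mitochondrial, nuclear core, Ndufa, Ndufb with Ndufc, and other accessory subunits. Points are runs and the black bar is the mean of the 4 runs; most points lie to the right of 0, run 4 is often farthest right among nuclear subunits, and mt-Nd3 and Ndufb4 have the widest spread.

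Markers of several cell types moved with the phase as well. Of 8 basal markers, the blocked edgeR fit called 2, Acta2 and Cnn1, both higher in G1. The summed basal level was 19508 to 24241 CPM in G0 and 26698 to 30157 CPM in G1. Acta2 held the largest part of the sum in G1, with a mean of 12213 CPM against 7926 CPM in G0. In the blocked fit Krt14, Krt5 and Trp63 lay near 0, at 0.05 ± 0.10, 0.05 ± 0.11 and -0.008 ± 0.11 (SE). Each was higher in G1 in 2 of 4 runs. Mylk, Myh11 and Oxtr had 0.38, 0.32 and 0.21 and were not called. The higher sum therefore does not describe all 8 markers. All 12 endothelial markers were lower in G1 in all 4 runs (background 9.46%) and all 12 were called lower in the blocked fit, with a median log2 fold change of -1.72 in the fit without a run term. Their summed level was 190.4 to 411 CPM in G0 and 40.7 to 166 CPM in G1, and none of the 12 was at 0 in any library. Fibroblast markers summed to 210 to 919 CPM in G0 and 244 to 617 CPM in G1, with 4 of 9 tested markers called lower in the blocked fit. Dcn, at 115 to 299 CPM in G0 and 165 to 307 CPM in G1, had the opposite sign, with a log2 fold change of 0.58 ± 0.16 (SE) and an adjusted p of 0.0973 in the blocked edgeR fit. Adipocyte markers summed to 150.3 to 439 CPM in G0 and 31.3 to 210 CPM in G1, with 1 of 4 tested markers called lower, while Adipoq, Cidec and Plin1 were at 0 in at least 1 library and failed the filter. Luminal markers summed to 1248 to 2473 CPM in G0 and 1380.1 to 2155 CPM in G1, and myeloid markers to 28.5 to 78.8 and 27.1 to 62.0 CPM, with none called in either list. Lymphocyte markers summed to at most 18.4 CPM and erythrocyte markers to at most 27.1 CPM in any library. The part of these cells in the values of the complex I subunits was not tested.

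The nuclear core subunits had a median log2 fold change of 0.28 (7 of 7 above 0). Ndufs3, Ndufs7, Ndufs8, Ndufv1 and Ndufv2 had fitted values from 0.25 to 0.42, and Ndufs1 lay near 0. Ndufs3, part of the module that carries electrons to ubiquinone, had 39.4, 36.2, 44.7 and 36.1 CPM in G0 and 50.4, 46.8, 56.2 and 55.7 CPM in G1 in runs 1 to 4, where CPM are counts scaled to library size; later values follow the same order of runs. It was the only member whose 4 G1 values all lay above its 4 G0 values, an order found for 0.829% of all genes. Its log2 fold change was 0.42 ± 0.16 (SE) with an unadjusted p of 0.0214 in the edgeR fit without a run term. Single-gene values from here on are from that fit, which does not pair the libraries of a run, unless stated otherwise. The fit with the run as a block gave 0.42 ± 0.13 (SE) for Ndufs3. Ndufs3 (chr2:90894634-90904827, minus strand) overlaps Kbtbd4 on the opposite strand by 88 bases, and Kbtbd4 holds 2689 counts to 3919 for Ndufs3. Whether counting used the strand is not stated, so reads of both genes in that overlap cannot be told apart.

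Ndufs7 and Ndufs8 carry iron-sulfur clusters on the way to ubiquinone. Ndufs7 had 74.1, 65.6, 84.6 and 59.9 CPM in G0 and 79.2, 78.0, 101 and 87.2 CPM in G1, and Ndufs8 had 68.5, 52.1, 79.6 and 47.5 CPM in G0 and 81.3, 58.6, 92.7 and 82.9 CPM in G1. The log2 fold change was 0.28 ± 0.17 (SE) for Ndufs7 and 0.35 ± 0.21 (SE) for Ndufs8. In the blocked fit Ndufs7 had 0.28 ± 0.12 (SE) and Ndufs8 0.35 ± 0.13 (SE). G1 was higher in each run for both, but the run 3 library of G0 exceeded at least 1 G1 library, so the groups overlapped.

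Ndufv1 and Ndufv2 form the site where NADH is oxidised; Ndufv1 binds the flavin. Ndufv1 had 115, 107, 87.1 and 90.05 CPM in G0 and 125, 111, 105 and 134 CPM in G1, with a log2 fold change of 0.25 ± 0.16 (SE). Ndufv2 had 114, 70.1, 85.4 and 65.8 CPM in G0 and 127, 100.0, 95.8 and 96.4 CPM in G1, with a log2 fold change of 0.32 ± 0.20 (SE). Both were higher in G1 in every run, and in both the groups overlapped, with the run 1 library the highest of G0. Ndufv1 had 0.25 ± 0.12 (SE) and Ndufv2 0.34 ± 0.12 (SE) in the blocked fit.

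Ndufs1, the largest subunit and a carrier of several iron-sulfur clusters, had 80.2, 68.3, 52.2 and 59.0 CPM in G0 and 79.3, 74.4, 45.4 and 76.5 CPM in G1. Run 3 held the lowest level in both phases, and the ratio was below 0 in runs 1 and 3. Its log2 fold change was 0.09 ± 0.21 (SE), smaller than its standard error. In the blocked fit it was 0.07 ± 0.13 (SE).

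Among the 30 accessory subunits, the 14 of the Ndufa group had a median log2 fold change of 0.36 and were each higher in G1 in all 4 runs. The 12 of the Ndufb and Ndufc groups had a median of 0.38, with 10 of 12 higher in every run. The 4 others, Ndufs4, Ndufs5, Ndufs6 and Ndufv3, had a median of 0.28, with 2 of 4 higher in every run. Ndufa4 is included by its symbol, although it is now assigned to cytochrome c oxidase; without it the nuclear median stayed at 0.35.

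Ndufa8 (chr2:36036326-36049406, minus strand), a subunit of the intermembrane-space side of the complex, had the smallest p of the accessory members (unadjusted 0.0376). It had 71.8, 62.4, 50.9 and 50.2 CPM in G0 and 85.9, 64.2, 87.2 and 77.4 CPM in G1, with a log2 fold change of 0.42 ± 0.18 (SE). Runs 3 and 4 differed most between phases and run 2 hardly at all, with per-run log2 ratios of 0.26, 0.04, 0.77 and 0.62. The groups overlapped through the run 1 library of G0. Ndufa8 had 0.42 ± 0.13 (SE) in the blocked fit.

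Ndufb3, a small subunit of the membrane arm, had 54.0, 26.5, 41.9 and 30.2 CPM in G0 and 61.1, 39.9, 59.3 and 52.4 CPM in G1, and its log2 fold change of 0.48 ± 0.24 (SE) was the largest among the 6 accessory members of smallest p. Ndufa11, a membrane-arm subunit, had 142, 91.3, 154 and 85.4 CPM in G0 and 159, 117, 209 and 162 CPM in G1, with a log2 fold change of 0.45 ± 0.24 (SE). In both, run 4 gave the widest gap between phases and run 1 the narrowest. The blocked fit gave 0.51 ± 0.14 (SE) for Ndufb3 and 0.46 ± 0.12 (SE) for Ndufa11. Ndufa11 lies across Vmac on the opposite strand over 256 bases, and Vmac holds 6656 counts to 12155 for Ndufa11.

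Ndufa12 and Ndufa5, both attached to the matrix arm, had log2 fold changes of 0.38 ± 0.21 (SE) and 0.45 ± 0.26 (SE). Ndufa12 had 62.2, 46.0, 78.3 and 51.5 CPM in G0 and 66.8, 69.5, 101 and 73.2 CPM in G1, and Ndufa5 had 69.5, 34.8, 72.6 and 46.3 CPM in G0 and 83.6, 51.2, 96.9 and 74.5 CPM in G1. Ndufc2, of the membrane arm, had 77.3, 39.6, 77.9 and 47.2 CPM in G0 and 95.2, 62.9, 93.9 and 72.9 CPM in G1, with a log2 fold change of 0.42 ± 0.25 (SE). Ndufa12, Ndufa5 and Ndufc2 had 0.39 ± 0.13, 0.48 ± 0.13 and 0.46 ± 0.13 (SE) in the blocked fit. In these 3 genes G1 was higher in each run, while the G0 libraries of runs 1 and 3 stood above the G1 library of run 2 for Ndufa5 and Ndufc2, and G0 of run 3 stood above G1 of runs 1, 2 and 4 for Ndufa12.

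At the other end, the 3 accessory members with the smallest fitted change were Ndufv3, Ndufb5 and Ndufb2. Ndufv3, a small companion of the NADH-oxidising module, had 28.6, 21.5, 41.0 and 24.8 CPM in G0 and 33.5, 24.3, 38.3 and 30.6 CPM in G1, with a log2 fold change of 0.13 ± 0.23 (SE) and run 3 lower in G1. Ndufb5 had 72.7, 33.6, 55.2 and 37.2 CPM in G0 and 72.3, 46.8, 60.4 and 49.6 CPM in G1, with a log2 fold change of 0.21 ± 0.25 (SE) and no gap in run 1. Ndufb2 had 54.7, 15.2, 23.7 and 18.9 CPM in G0 and 56.1, 20.7, 27.1 and 28.2 CPM in G1, with a log2 fold change of 0.23 ± 0.43 (SE). In Ndufb2 both run 1 libraries stood above the other 6, so the spread between runs exceeded that between phases. Without the G1 library of run 1, its fitted value was -0.16. With all libraries and the run as a block, Ndufb2 had 0.30 ± 0.15 (SE), Ndufv3 0.15 ± 0.15 (SE) and Ndufb5 0.25 ± 0.13 (SE). Ndufb2 overlaps Braf and the antisense gene Gm16272 on the opposite strand, with 3456 and 4723 counts to 2730 for Ndufb2 itself. Ndufb5 overlaps Mrpl47 on the opposite strand over 616 bases, and Mrpl47 holds 4161 counts to 4720 for Ndufb5.

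Ndufb4 (chr16:37647170-37654453, minus strand), a membrane-arm subunit, had the largest fitted change of all members, 0.56 ± 0.38 (SE), and the lowest mean CPM of the nuclear members, 21.6. It had 15.1, 9.13, 27.1 and 18.6 CPM in G0 and 11.97, 24.2, 38.4 and 28.7 CPM in G1. Runs 1 and 2 pointed opposite ways, with per-run log2 ratios of -0.33, 1.39, 0.50 and 0.62. The blocked fit gave 0.55 ± 0.21 (SE) for Ndufb4. A share of 33.4% of its 100-base windows is found letter for letter in the processed pseudogene Ndufb4c on chromosome 15, which holds 23 counts in all, so its level is uncertain. Sharing with a pseudogene on another chromosome also touched Ndufs3 (19.9%, with Gm12251), Ndufs5 (19.8%, with BC002163) and Ndufa12 (17.7%, with Gm15920). Ndufb6 (28.2%, with Smim27), Ndufa13 (24.0%, with Tssk6) and Ndufb9 (17.0%, with Gm49356) shared windows with genes that overlap them at the same locus. Smim27 and Tssk6 lie on the opposite strand and Gm49356 on the same strand. Smim27 overlaps Ndufb6 over 350 bases and holds 7165 counts to 9456 for Ndufb6. Ndufb5 shared 11.9% with Mrpl47, which overlaps it on the opposite strand. Gm12251 holds 27 counts over all 8 libraries against 3919 for Ndufs3, and Gm15920 holds 116 against 5929 for Ndufa12.

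The mitochondrial subunits are transcribed as parts of long polycistronic RNAs from the circular mitochondrial genome and cut apart at tRNAs. Where no tRNA lies between neighbours, genes stay joined or overlap, and 2 such places fall among the complex I genes. The ends of these genes are shown because a read there can belong to both (GRCm38, GENCODE M21, 5′ to 3′ on the gene's strand). In the first pair the capitals mark the 7 bases that belong to both mt-Nd4l and mt-Nd4, whose coding sequences are carried by 1 mature mRNA:
mt-Nd4l, last 30 bases, chrM:10144-10173, plus strand: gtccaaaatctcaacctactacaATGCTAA
mt-Nd4, first 30 bases, chrM:10167-10196, plus strand: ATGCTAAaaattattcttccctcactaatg
The mt-Nd4 gene has 1378 bases, which leaves 1 base after whole codons (in capitals), and its stop codon is completed by the poly(A) tail:
mt-Nd4, last 30 bases, chrM:11515-11544, plus strand: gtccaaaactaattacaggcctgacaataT
In the other pair the capitals mark 14 bases where mt-Nd5 and mt-Nd6 run into each other from opposite strands:
mt-Nd5, last 30 bases, chrM:13536-13565, plus strand: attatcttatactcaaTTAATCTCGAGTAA
mt-Nd6, last 30 bases, chrM:13552-13581, minus strand: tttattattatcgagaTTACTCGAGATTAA
mt-Nd6 is the only protein gene on its strand of the mitochondrial genome, and its RNA is known to carry little or no poly(A) tail. The libraries were made from RNA selected on oligo-dT, so its level against the other ND genes need not follow its abundance in the cell.

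mt-Nd1 (chrM:2751-3707, plus strand), which sits at the junction of the membrane and matrix arms, was the most abundant member. It had 1375, 572, 1683 and 804 CPM in G0 and 1579, 850.2, 1786 and 1184 CPM in G1, and its log2 fold change was 0.28 ± 0.34 (SE). With the run as a block it was 0.35 ± 0.11 (SE). G1 was higher in each run, but the runs differed more than the phases: both libraries of run 3 stood above both libraries of every other run, and run 2 was low in both phases. With single libraries left out the fitted value ranged from 0.07, without the G0 library of run 2, to 0.56, without the G0 library of run 3. mt-Nd1 made up 39.5% to 55.9% of the mitochondrial complex I counts in a library.

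mt-Nd2, mt-Nd4 and mt-Nd5 encode the proton-pumping subunits of the membrane arm. mt-Nd2 had 334, 129, 791 and 365 CPM in G0 and 422, 193, 956 and 477 CPM in G1, with a log2 fold change of 0.34 ± 0.57 (SE). mt-Nd4 had 320.2, 209, 779 and 426 CPM in G0 and 399, 300.3, 849.5 and 576 CPM in G1, with a log2 fold change of 0.29 ± 0.42 (SE). mt-Nd5 had 321, 202, 604 and 337 CPM in G0 and 402, 288, 556 and 398 CPM in G1, with a log2 fold change of 0.17 ± 0.31 (SE). mt-Nd2 and mt-Nd4 were higher in G1 in every run, whereas mt-Nd5 was lower in G1 in run 3. In all 3 the spread between runs exceeded the gap between phases, and without the G1 library of run 3 the fitted values became -0.15, -0.02 and -0.01. With all libraries and the run as a block they were 0.39 ± 0.11, 0.35 ± 0.11 and 0.24 ± 0.11 (SE).

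mt-Nd6, on the other strand, had 105, 38.7, 209 and 95.2 CPM in G0 and 131, 63.4, 206 and 109 CPM in G1, with a log2 fold change of 0.18 ± 0.48 (SE); run 3 again held the highest values, and its phases were nearly equal. Without the G1 library of run 3 the fitted value was -0.15, and without the G0 library of run 2 it was -0.09. With all libraries and the run as a block it was 0.29 ± 0.12 (SE). mt-Nd3 had 4.08, 7.16, 57.4 and 7.33 CPM in G0 and 5.53, 5.06, 50.6 and 17.6 CPM in G1, with a log2 fold change of 0.03 ± 1.05 (SE). The run 3 libraries stood above the other 6, and the per-run log2 ratios of 0.42, -0.49, -0.18 and 1.25 took both signs. The direction of mt-Nd3 also turned with single libraries left out, to -1.06 without the G1 library of run 3 and to 1.68 without the G0 library of run 3. With all libraries and the run as a block, mt-Nd3 had 0.20 ± 0.23 (SE).

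mt-Nd4l was nearly absent from the table and failed the low-count filter. It had 0, 2, 0 and 1 counts in the 4 G0 libraries and 0, 7, 1 and 0 in the 4 G1 libraries, for 11 in all, while mt-Nd4, on the same mRNA, had 40996. A count of 0 in a library allows up to 3 counts, and no fold change is given. Of the 198 windows of 100 bases in mt-Nd4l, the read length stated in the labels, 195 (98.5%) also occur letter for letter in Gm10222, an unprocessed pseudogene on chromosome 1. The following 120 bases of mt-Nd4l stand unchanged at chr1:24612561-24612680 on the minus strand, within Gm10222, and are shown because a read from them has more than 1 place in the genome:
mt-Nd4l, chrM:9897-10016, plus strand: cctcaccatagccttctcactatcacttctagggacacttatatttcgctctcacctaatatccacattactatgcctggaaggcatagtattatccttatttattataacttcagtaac
Gm10222 itself held 15 counts over the 8 libraries.

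The same comparison was made for the other mitochondrial messenger RNAs, some of which have an annotated copy in the nuclear genome. mt-Nd3 shared 97.6% of its windows with Gm28438 and mt-Nd4 shared 60.8% with Gm28439, both on chromosome 1 beside Gm10222. mt-Nd2 shared 3.19%, with Gm13339 on chromosome 2, and mt-Nd1, mt-Nd5 and mt-Nd6 shared none. Outside complex I, mt-Co2, mt-Co3 and mt-Atp6 shared 99.5%, 99.9% and 99.5%, and these 3 genes had 0 counts in both libraries of run 1. Low counts were not limited to genes with windows in another annotated transcript: mt-Atp8, which shared 0% of its 105 windows, also had 0 counts in both libraries of run 1 and 0 to 10 counts in the others. The search covered annotated transcripts only, so a copy of mt-Atp8 outside them would be missed. mt-Cytb, with no shared window, had 1590.2, 895, 2271 and 1312 CPM in G0 and 1924, 1332, 2391 and 1975 CPM in G1. How reads with several places were treated is not stated, so the levels of mt-Nd3, mt-Nd4 and mt-Nd4l are uncertain, and the part of the shared sequence in the difference between runs was not tested.

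**Figure D2:**
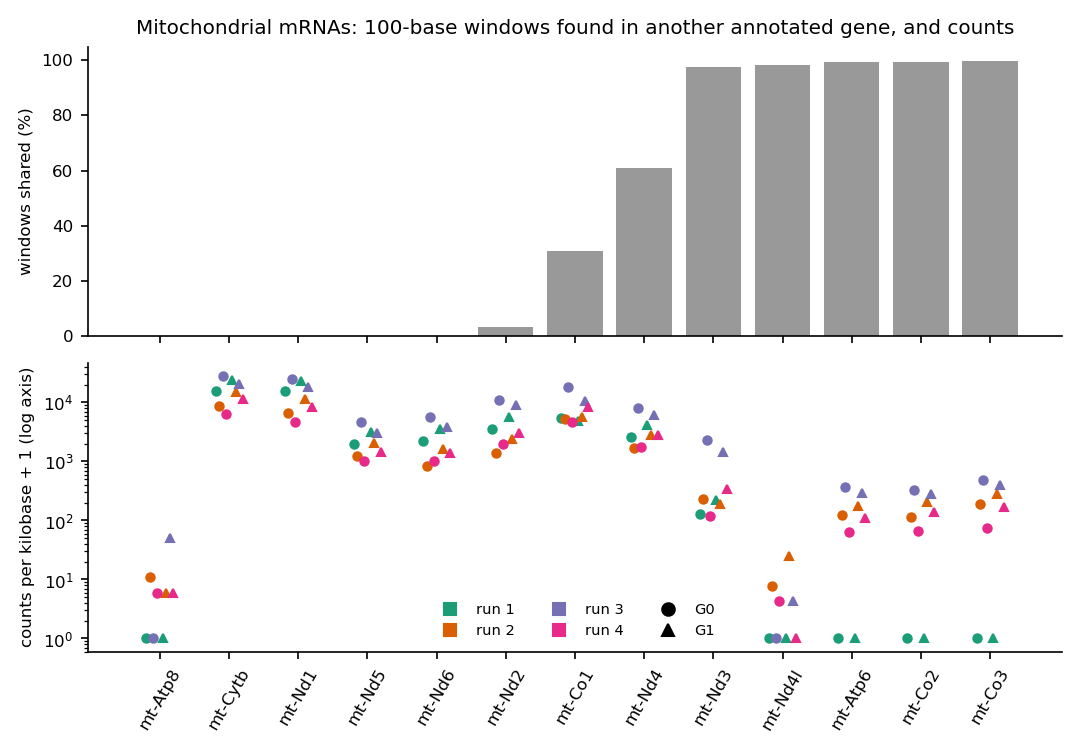
Top: share of 100-base windows of each mitochondrial mRNA that occurs unchanged in another annotated transcript (percent). Bottom: counts per kilobase plus 1 on a log axis, with circles for G0, triangles for G1 and colours for runs; the 5 genes at or above 97.6% shared and mt-Atp8, with no shared window, have the lowest mean counts per kilobase, and run 1 lies at 0 counts for mt-Nd4l, mt-Atp8, mt-Atp6, mt-Co2 and mt-Co3.

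Levels can be compared between genes only per length of transcript. By mean CPM per kilobase over the 8 libraries, mt-Nd1 came first at 1284, followed by Ndufa4 at 442, mt-Nd2 at 442 and mt-Nd4 at 350.0. Ndufa1, Ndufa11, mt-Nd6, Ndufa7 and mt-Nd5 came next, between 265 and 213. The median was 231 CPM per kilobase for the 7 mitochondrial and 75.6 for the 37 nuclear subunits. The core nuclear subunits covered 25.1 (Ndufs1) to 104 (Ndufs7) CPM per kilobase, while the complex holds them in equal numbers. mt-Nd1 came first in every library. Below it, among the 43 tested members, the ranges of neighbours overlapped over libraries in both phases, except for Ndufc1 and Ndufs1 in G1. Ndufa4, mt-Nd2 and mt-Nd4 were among those with overlap. These ranges include the differences between runs, and differences between neighbours within a library were not tested. mt-Nd4l, which failed the filter, came last at 0.419. The values for Ndufb2 (6.996) and Ndufab1 (19.0) rest on annotated transcripts of 4371 and 3479 bases, the longest of the members, and may be too low.

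**Figure D3:**
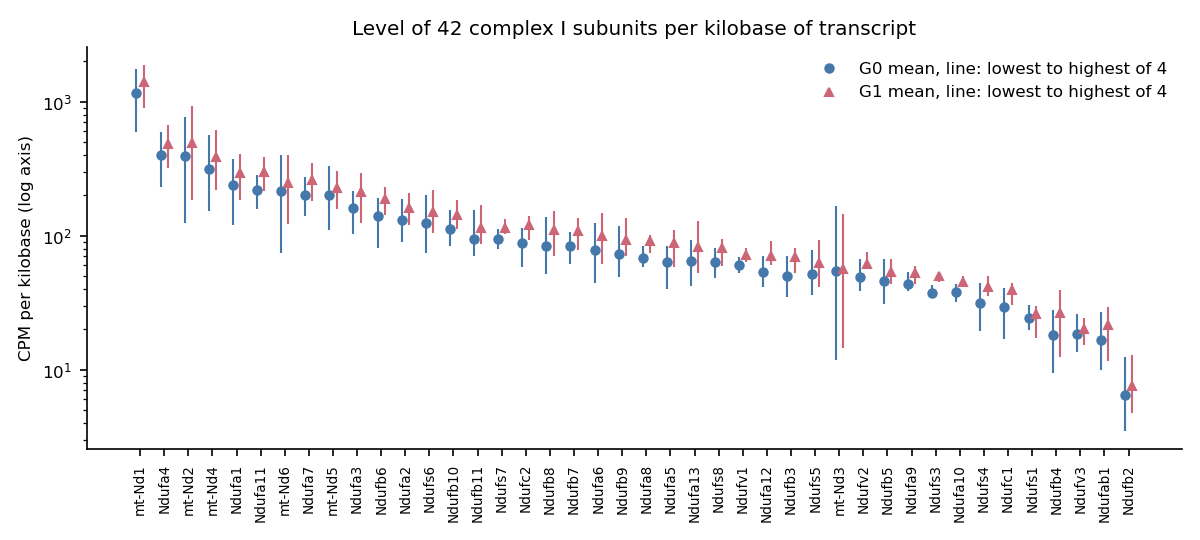
Level of 42 of the 43 tested complex I subunits in CPM per kilobase of the representative transcript on a log axis, ordered by the mean over all libraries; circles (G0) and triangles (G1) are means of 4 libraries and lines run from the lowest to the highest library. mt-Nd1 stands first, and in both phases the line is longest for mt-Nd3, followed by mt-Nd2.

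Summed over members, the nuclear subunits held 2618 ± 639.8 (SD, n = 4) CPM in G0 and 3278 ± 599.5 (SD, n = 4) CPM in G1. In runs 1 to 4 the sums were 2996, 1977, 3315 and 2183 CPM in G0 and 3317, 2526, 3993 and 3276 CPM in G1. The 7 mitochondrial subunits held 2444 ± 1244 and 2951 ± 1113 CPM (SD, n = 4) in the 2 phases. Their sums by run were 2459, 1157, 4124 and 2035 CPM in G0 and 2939, 1700.2, 4405 and 2761 CPM in G1. Each sum was higher in G1 in each of the 4 runs, and for both the phases overlapped. The mean log2 ratio of the sums within a run was 0.34 ± 0.19 for nuclear and 0.34 ± 0.20 for mitochondrial subunits (SD over 4 runs). The mitochondrial sums differed far more between runs than the nuclear sums.

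The gap between phases was of like size in both genomes but was distributed differently over runs. The median log2 ratio of the nuclear subunits was 0.15, 0.37, 0.26 and 0.62 in runs 1 to 4, and that of the mitochondrial subunits 0.32, 0.55, 0.03 and 0.41. The difference, mitochondrial minus nuclear, was 0.17, 0.18, -0.23 and -0.21, with a mean of -0.02 ± 0.23 (SD over 4 runs). The mitochondrial subunits thus led in runs 1 and 2 and the nuclear ones in runs 3 and 4. From the fitted changes of the fit without a run term the difference of medians was -0.11, and without the G0 library of run 3 it was 0.16.

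The ratio of summed counts, mitochondrial over nuclear, does not depend on how libraries are scaled. It was 0.821, 0.585, 1.24 and 0.932 in G0 and 0.886, 0.673, 1.10 and 0.843 in G1. G1 was higher in runs 1 and 2 and lower in runs 3 and 4, and the mean log2 difference, G1 minus G0, was -0.0016 ± 0.19 (SD over 4 runs). Between runs of one phase the log2 ratio ranged from -0.77 to 0.31 in G0, wider than any gap between phases within a run. Leaving out mt-Nd3, mt-Nd4 and mt-Nd4l gave a mean difference of -0.0027.

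**Figure D4:**
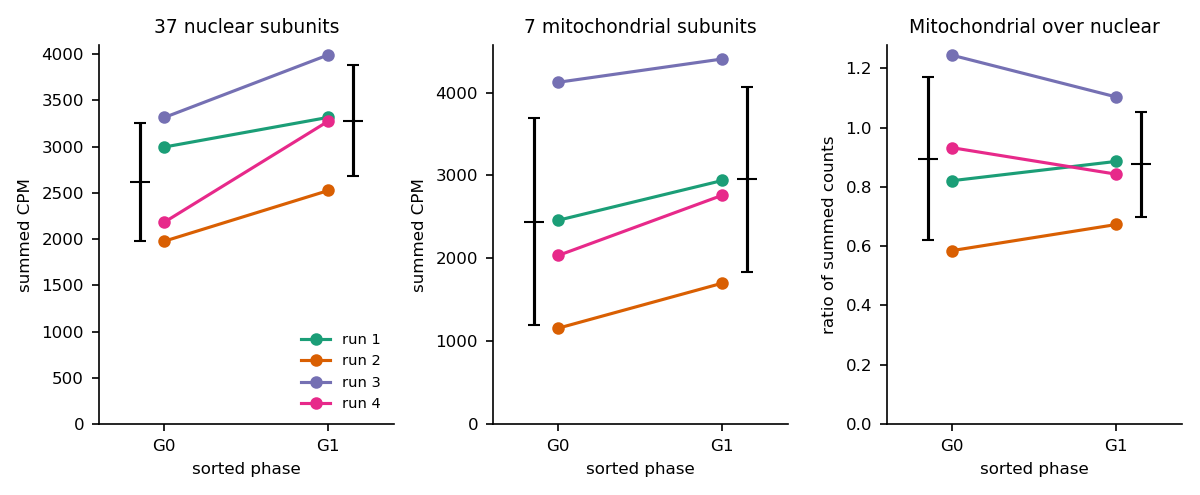
Summed CPM of the 37 nuclear subunits (left), of the 7 mitochondrial subunits (middle) and the ratio of summed counts, mitochondrial over nuclear (right), in each library by sorted phase. Lines join the G0 and G1 library of a run and black bars give the mean ± SD of 4 libraries; both sums are higher in G1 in each run, and the ratio is higher in G1 in runs 1 and 2 and lower in runs 3 and 4.

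Genes that build complex I or express the mitochondrial genome had smaller median changes than the subunits, a difference that was not tested. Of 18 assembly factors, 17 were found and tested. Their median log2 fold change was 0.13, 15 of 17 lay above 0, 4 were higher in G1 in all 4 runs and none was called. Ndufaf6 had 10.1, 6.08, 6.08 and 5.18 CPM in G0 and 11.7, 7.44, 16.2 and 9.56 CPM in G1, with a log2 fold change of 0.71 ± 0.32 (SE) (unadjusted p = 0.0468, adjusted p = 0.9999, edgeR), and Ndufaf8 had 0.36 ± 0.20 (SE). Of 25 genes for transcription, maturation and replication of mitochondrial DNA, 20 lay above 0, with a median of 0.09, 4 were higher in all 4 runs and none was called. Ssbp1, which binds single-stranded mitochondrial DNA, had 39.6, 34.8, 37.4 and 30.2 CPM in G0 and 43.4, 45.3, 47.3 and 45.6 CPM in G1 and a log2 fold change of 0.35 ± 0.16 (SE). The second smallest p of this list belonged to Slirp, a partner of Lrpprc in holding mitochondrial mRNAs, at 0.25 ± 0.18 (SE). The mitochondrial RNA polymerase Polrmt had 0.09 ± 0.25 (SE), the DNA-packaging factor Tfam 0.04 ± 0.20 (SE) and Lrpprc 0.00 ± 0.18 (SE).

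The nuclear factors known to regulate respiratory genes lay around 0, with a median log2 fold change of 0.02 over 9 genes, 5 above 0, and none higher in all 4 runs. The fitted value was 0.02 ± 0.22 (SE) for Nrf1, 0.05 ± 0.31 (SE) for Gabpa and 0.02 ± 0.34 (SE) for Esrra. Ppargc1a, a coactivator, was near the limit of detection at 0.204 to 2.99 CPM. The 2 members of smallest p were Pprc1 at -0.17 ± 0.18 (SE) and Gabpb2 at -0.12 ± 0.25 (SE). These are transcript levels and say nothing of the proteins.

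The other mitochondrial messenger RNAs had a median log2 fold change of 0.33 over the 5 tested of 6. mt-Cytb, of complex III, was higher in G1 in every run, at 0.33 ± 0.28 (SE). mt-Co2 had the next smallest p, at 0.51 ± 1.34 (SE), with run 1 at 0. mt-Co1, of complex IV, had 774, 717, 1975 and 1299.8 CPM in G0 and 538, 680.3, 1653 and 1949.9 CPM in G1 and a fitted value of 0.02 ± 0.46 (SE); it was higher in G1 in run 4 alone. The ribosomal RNAs mt-Rnr1 and mt-Rnr2 had 0.31 ± 0.63 (SE) and 0.13 ± 0.58 (SE). The blocked fit called none of these 7 genes.

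The promoters of nuclear members were searched for letters bound by 3 factors of this regulation, since the fitted changes of all nuclear members had one sign. RefSeq windows from 250 bases before to 50 bases after the gene start (GRCm38.p6) were found for 33 of the 37 genes; Ndufa2, Ndufb9 and Ndufs1 were among those with no entry. The NRF1 letters, GCGCA and GCGC with any 1 base between, stood on either strand in 7 of 33 member windows (21.2%), in 10.03% of the 10623 windows of tested genes and in 4.78% of all 27025 windows. AAGATGG, the core bound by YY1, stood in 7 of 33 (21.2%), in 7.09% of tested and 6.48% of all windows, and its matches in members began 22 to 38 bases after the gene start. CCGGAAG, bound by ETS factors such as GABPA, stood in 4 of 33 (12.1%), in 17.6% of tested and 9.12% of all windows. The 7 genes with the NRF1 letters were Ndufa5, Ndufa6, Ndufa8, Ndufa11, Ndufb4, Ndufs5 and Ndufs6, and those with the YY1 letters were Ndufa3, Ndufa9, Ndufb8, Ndufc1, Ndufs4, Ndufs6 and Ndufs7. The stretches just before the RefSeq start of 3 of them, which are among the accessory members described above, are shown with the NRF1 letters in capitals, on the gene's strand:
Ndufa8, chr2:36049339-36049418, minus strand: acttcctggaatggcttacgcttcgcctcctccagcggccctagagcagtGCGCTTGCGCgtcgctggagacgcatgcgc
Ndufa11, chr17:56717662-56717741, plus strand: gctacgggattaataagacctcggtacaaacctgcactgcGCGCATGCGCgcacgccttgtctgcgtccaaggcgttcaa
Ndufb4, chr16:37654369-37654478, minus strand: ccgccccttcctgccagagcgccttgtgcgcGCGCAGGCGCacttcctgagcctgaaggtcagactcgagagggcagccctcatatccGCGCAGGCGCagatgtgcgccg
The match begins 30 bases before the RefSeq start in Ndufa8 and 60 bases before it in Ndufa11, and Ndufb4 holds matches at 79 and 22 bases before that start beside one farther out at 191. The GENCODE genes of Ndufa8 and Ndufb4 begin farther upstream, at chr2:36049406 and chr16:37654453. The capitals shown for these genes therefore lie inside the GENCODE gene. A match is a description of the letters, not of binding in these cells.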

How the data were processed

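Polyadenylated RNA was made into TruSeq stranded libraries and read as 100-bp pairs on a HiSeq 4000, per the labels' protocols. Per the submitters' processing notes, the tools were Trimmomatic 0.35 and STAR 2.5.2a with the mm10 build; of the counting step, the program, use of strand and annotation release are not given. The deposited table holds raw, whole-number counts per Ensembl gene; 54722 of 54837 identifiers matched a GENCODE M21 symbol. No column was left unused.

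Counts were tested with edgeR 4.0.16 in R 4.3.3 (quasi-likelihood, robust, two-sided, TMM factors, filterByExpr, phase alone), adjusted by Benjamini-Hochberg over all 15192 tested genes and called under 0.05. Each SE was derived from the F statistic of the fit. CPM were scaled by TMM, and a prior count of 2 entered the log2 ratios within runs. Each gene's length is that of a representative transcript. Alternatives were the run as a replicate block, that block with length and GC offsets, DESeq2 1.42.0, limma-voom (limma 3.58.1), RLE factors, other filters, sizes without the mitochondrial chromosome, other member rules and libraries or runs left out. The run numbers in the titles pair the libraries: deviations from the group means correlated at 0.668, 0.470, 0.638 and 0.437 within runs 1 to 4 and at most at 0.0971 between runs. No 2 libraries of a phase agreed within sampling noise (chi-square over its degrees of freedom, 21.7 to 95.1). The fits were first run on simulated data with changes larger than any member's fitted change. A set recovery was required of the blocked fit only. That check therefore does not cover changes of the members' size.

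The members and gene lists were chosen with earlier results of these data known, so the common direction of the subunits is not independent evidence. The genes given with values in every library were the 7 mitochondrial and the nuclear core subunits, the 6 accessory subunits of smallest p and the 3 of smallest change; Ndufb4, Acta2 and Cnn1 were added after their values were seen. The values of 1 member are not reported here, though it enters the counts, medians and sums. Of other lists, called members, the 2 of smallest p and a few known regulators were named.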

Additional observations from a re-analysis of the deposited data

Results flagged for a closer look

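Over 96 groups of 4 values (each tested subunit's CPM in G0 and in G1, the sums, their ratio and the per-run differences), 4 held a library far from the other 3 by Dixon's test. Chance alone flags about 1 in 20 such groups. mt-Nd3 stood at 57.4 CPM in the G0 library of run 3 against 4.08 to 7.33 CPM in the other 3. Ndufb11, a membrane-arm subunit on the X chromosome, stood at 140.0 CPM in the same library against 63.7 to 74.7 CPM. Ndufs1 stood at 45.4 CPM in the G1 library of run 3 against 74.4 to 79.3 CPM. Ndufv2 stood at 127 CPM in the G1 library of run 1 against 95.8 to 100.04 CPM. In 3 of the 4 the library belonged to run 3.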

How the results depend on the processing

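The number of genes called, 0 in the fit without a run term, was 34 with DESeq2, 87 with no low-count filter, 189 with the replicate block (also with sizes taken without the mitochondrial chromosome), 285 with the replicate block and length and GC offsets, 197 with limma-voom and the replicate block, and 233 with DESeq2 and the replicate block. It was 0 without each library in turn, and 274, 153, 217 and 97 with the replicate block without run 1, 2, 3 and 4. With no filter the median of all genes lay at -0.82 on the log2 scale, against -0.02 to 0.04 in the other settings. Complex I members called went from 0 to 4 with DESeq2 and the replicate block, and ranged from 0 to 5 with the replicate block without each run in turn; the block changed no member's call with edgeR or limma-voom. DESeq2 and limma-voom with the block, the block without the mitochondrial chromosome and the member rule without mt-Nd3, mt-Nd4 and mt-Nd4l were chosen after seeing the data.

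The nuclear median stayed above 0 in every setting run, from 0.24 to 0.55, both reached with single libraries left out. Adding length and GC offsets to the block lowered the medians from 0.36 to 0.29 for nuclear and from 0.32 to 0.18 for mitochondrial subunits. The median of all genes went from 0.01 to 0.04. The mitochondrial median ranged from -0.085 without the G1 library of run 3 to 0.71 without the G0 library of run 3, and was 0.01 without the G0 library of run 2. Leaving out a single library leaves the other library of its run unpaired. With the replicate block and whole runs left out in turn, the mitochondrial median ranged from 0.29 to 0.41. The difference, mitochondrial minus nuclear, ranged from -0.33 to 0.16, and from -0.11 to 0.03 with the replicate block and whole runs left out. The log2 ratio of summed counts ranged from -0.07 to 0.06 without each run in turn.

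Among single subunits the sign turned for mt-Nd3 with limma-voom (-0.041) and with the replicate block without run 4 (-0.12), and for Ndufs1 with the block without run 4 (-0.038). With single libraries left out of the fit without a run term, mt-Nd3 ranged from -1.06 to 1.68, mt-Nd2 from -0.15 to 0.89, mt-Nd4 from -0.024 to 0.74, mt-Nd5 from -0.027 to 0.52, mt-Nd6 from -0.15 to 0.68, Ndufs1 from -0.0041 to 0.24 and Ndufb2 from -0.16 to 0.79. With the replicate block and whole runs left out, mt-Nd3 ranged from -0.12 to 0.41, mt-Nd2 from 0.34 to 0.43 and mt-Nd4 from 0.30 to 0.42. In the same fits mt-Nd5 ranged from 0.15 to 0.35, mt-Nd6 from 0.17 to 0.40, Ndufs1 from -0.038 to 0.15 and Ndufb2 from 0.21 to 0.40. The cause was not tested.

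Count depth limits the values of mt-Nd4l (0 to 7 counts a library) and mt-Nd3 (at least 41).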

Other observations

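Counts on genes of the GENCODE type antisense made up 1.42% and 1.46% of the 2 run 1 libraries and 1.71% to 1.98% of the other 6. Gm44986, which lies opposite Ndufab1, had 9 and 25 counts in the run 1 libraries and 132 to 762 in the others.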
